A study of Mus musculus with 16 samples.

Results

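The interleukin 4, 13, 6 and 10 axes were followed through 10 genes, taken by symbol from the 49568 gene rows of the count table: the receptor chains Il4ra, Il13ra1, Il13ra2, Il6ra, Il6st and Il10ra, the ligand Il6, the transcription factors Stat6 and Stat3, and the feedback inhibitor Socs3. All 10 symbols were in the table and each belonged to a single annotated gene. The tissue was the flexor tendon of the hind paw of male mice 9 to 11 weeks old, from 2 inbred strains, C57BL/6J (C57) and MRL/MpJ (MRL), a strain studied for its scar-sparing repair. In each strain there were 4 libraries of uninjured tendon and 4 libraries of tendon at 7 days post injury (dpi), the injury being a partial cut across the deep digital flexor tendon of the third digit. No group carried a transgene. The injured mice had anaesthesia (ketamine and xylazine) and the analgesic buprenorphine for surgery, and the controls were uninjured tendons rather than sham-operated ones, so effects of surgery and drugs cannot be told apart from that of the cut. The tendon sheath and surrounding tissue were left on the tendon, so the RNA is that of a mixed tissue. All 8 tenocyte markers followed, Scx among them, had counts in every library, at a summed 11270 to 60187 counts per 1000000 (CPM). Total counts were 18524170 to 23741648 in the 4 injured MRL libraries and 12552424 to 17832908 in the 12 others, so injured MRL tendon was sequenced most deeply. Of the libraries 3 stood apart from their groups, C57 uninjured replicate 4, C57 injured replicate 1 (both described with Il4ra) and MRL uninjured replicate 4. The last differed from the rest of its group by a chi-square per degree of freedom of 93.4 to 105, against 30.2 to 39.4 among the other 3. The injured MRL libraries differed by 75.7 to 121 among replicates 1 to 3 and by 153 to 212 between these and replicate 4, which was left out only in turn and not together with those 3. The 4 libraries of a group stand for 4 animals by the methods of the study, with RNA from single tendons. The p-values weigh group differences against the spread between these animals.

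Interleukin 4 binds the IL-4 receptor alpha chain, which then joins either the common gamma chain (Il2rg) or the IL-13 receptor alpha 1 chain, and both pairs pass the signal to STAT6. IL-13 uses the second pair only, and the IL-13 receptor alpha 2 chain binds IL-13 as a decoy. IL-6 binds its own alpha chain, which recruits the shared signalling chain gp130 (Il6st), and IL-10 binds the IL-10 receptor alpha chain with Il10rb. Both activate STAT3, and STAT3 induces Socs3, which in turn blocks gp130 signalling. In wounds these cytokines are known for steering macrophages between inflammatory and repair-associated states and for acting on fibroblasts.

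Levels are given as CPM on library sizes adjusted by trimmed mean of M values (TMM), and a change was called where edgeR's quasi-likelihood test gave a Benjamini-Hochberg adjusted p under 0.05 together with a log2 fold change above 1 in size. Of the 10 genes, 8 had enough counts to be tested in each comparison. Il6 and Il13ra2 did not.

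Socs3 and Il13ra1 are shown by sequence, the first as the established STAT3 target among these genes and the second as the member with the largest called rise after injury. STAT factors bind the letters TTCNNNGAA (and STAT6 also TTCNNNNGAA), whose fixed letters read the same on either strand, so that a search of 1 strand covers both. Matches to one may overlap matches to the other, which did not occur here. RefSeq promoters (GRCm38.p6, 250 bases before to 50 after the start) were found for 9 of the 10 genes, all but Il10ra. In the 9 promoters TTCNNNGAA occurred once, in Socs3, 154 bases before the RefSeq start, and TTCNNNNGAA did not occur. The Socs3 window lies wholly inside the gene's GENCODE span (117966079 to 117970047, minus strand), so its RefSeq start is downstream of the GENCODE start. The stretch before that GENCODE start was not searched. For Il4ra the RefSeq and GENCODE starts also differ. Among 32851 mouse promoters of the same length, 8.3% held the first motif and 6.95% the second. The stretches below run 5′ to 3′ on the gene's strand, with the motif in capitals. The Socs3 stretch is chr11:117969467-117969616 on the minus strand and the Il13ra1 stretch is chrX:36111858-36112107 on the plus strand. In the first, 1 run of capitals is seen, and in the second none.
Socs3: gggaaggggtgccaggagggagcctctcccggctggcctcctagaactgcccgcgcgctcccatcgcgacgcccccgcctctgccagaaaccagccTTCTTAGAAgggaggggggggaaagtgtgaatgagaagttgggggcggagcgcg
Il13ra1: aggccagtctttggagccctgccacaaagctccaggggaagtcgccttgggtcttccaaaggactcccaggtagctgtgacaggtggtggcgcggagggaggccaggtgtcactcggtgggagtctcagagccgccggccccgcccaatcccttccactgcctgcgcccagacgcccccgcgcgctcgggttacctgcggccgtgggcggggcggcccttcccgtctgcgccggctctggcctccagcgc

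In the 4 groups, the 8 tested genes fell into 3 kinds of pattern. Il4ra, Il13ra1 and Il10ra had higher mean levels at 7 dpi than in uninjured tendon in both strains, Il6ra had the higher mean in C57 with and without injury, and Stat6, Il6st, Stat3 and Socs3 had log2 fold changes after injury between −0.34 and 0.21. After injury 0 of the 8 tested genes were called in C57 and 2 were called in MRL, both higher. Over all genes tested, 1.07% were called in C57 (0.908% called and higher) and 7.41% in MRL (5.25% called and higher). The median log2 fold change of the 8 genes was 0.11 in C57 and −0.08 in MRL, against −0.05 and −0.03 over all genes tested.

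**Figure D1:**
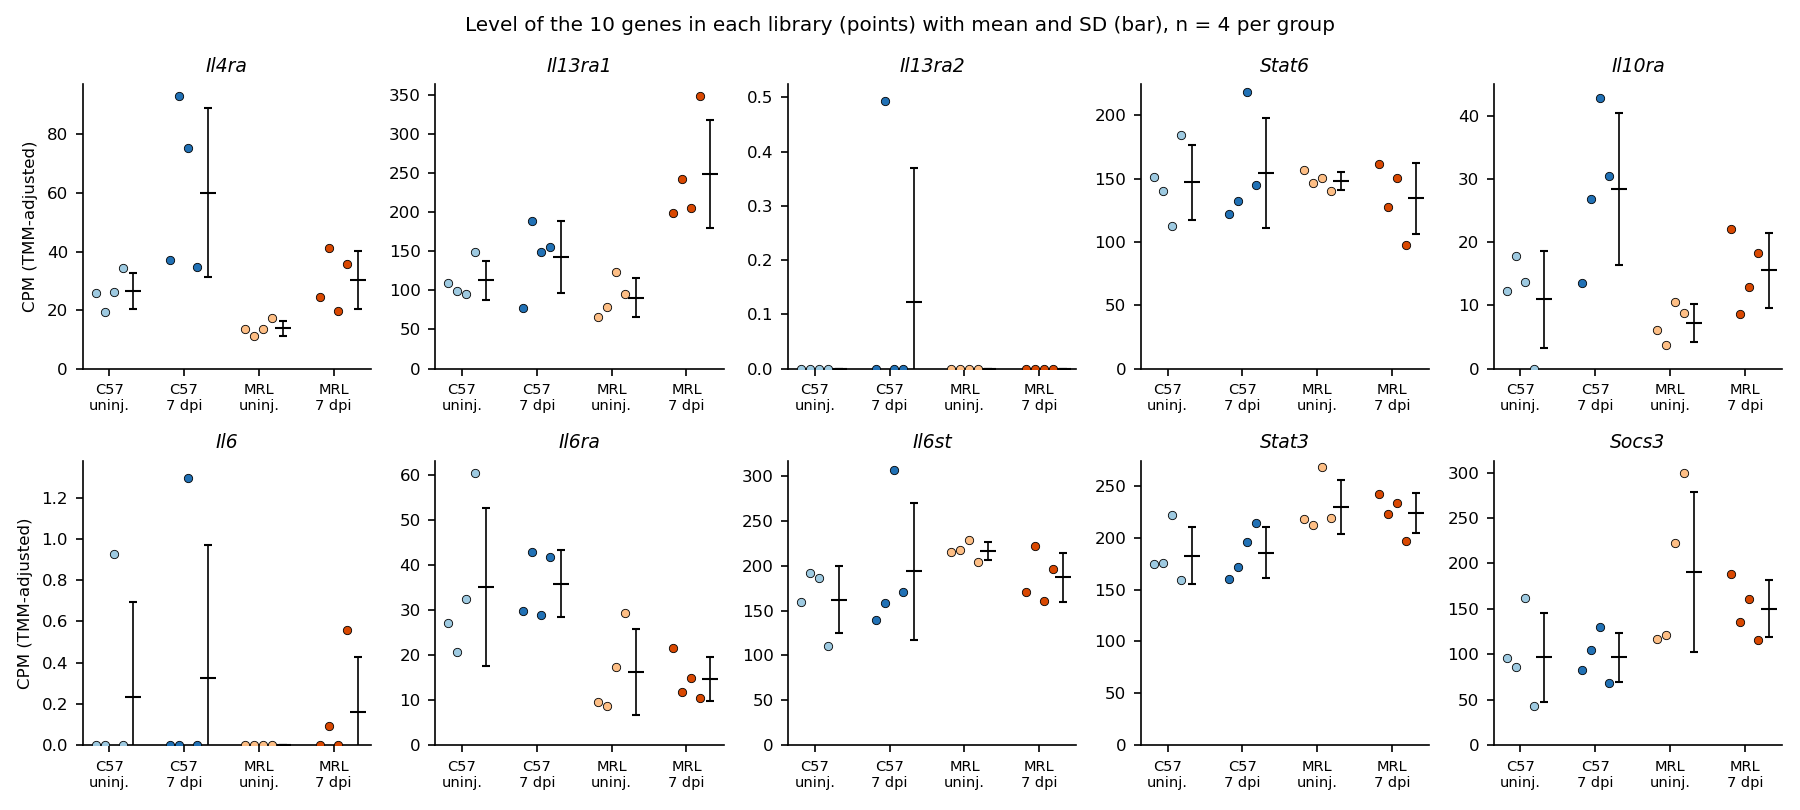
CPM on TMM-adjusted library sizes (vertical axes, linear from 0, a scale for each gene) of the 10 genes in the 4 libraries of each group, with the mean and SD beside the points (SD bars are cut at 0). The 4 injured MRL libraries of Il13ra1 lie above the 12 others, Il6ra lies lower in MRL than in C57 after injury, and Il6 and Il13ra2 stay at or near 0.

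Il4ra (chromosome 7, 125552120 to 125579474, plus strand, GRCm38) encodes the chain shared by the IL-4 and IL-13 receptors. In uninjured C57 tendon it was at 25.8, 19.4, 26.1 and 34.4 CPM, and at 7 dpi at 37.2, 93.0, 75.5 and 34.6 CPM. In MRL the uninjured libraries were at 13.5, 11, 13.5 and 17.1 CPM and the injured ones at 24.3, 41.1, 19.7 and 35.8 CPM. In each strain all 4 injured libraries were above all 4 uninjured ones, although in C57 the gap between the groups was small. The log2 fold change was 1.13 (SE 0.351) in C57, with an adjusted p of 0.184, and 1.14 (SE 0.275) in MRL, with an adjusted p of 0.0269, so the change was called in MRL. These fold changes were tested against each other in the strain-by-injury interaction, which was −0.05 (SE 0.456, adjusted p = 0.984). In MRL the call held without 3 of the 8 libraries left out in turn. It was lost without injured replicate 2 (log2 fold change 0.96, adjusted p = 0.0799), injured replicate 4 (1.05, 0.0515), uninjured replicate 1 (1.13, 0.0719), uninjured replicate 2 (1.05, 0.0737) or uninjured replicate 3 (1.11, 0.0694).

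Without 2 C57 libraries that stand apart, uninjured replicate 4 and injured replicate 1, Il4ra was also called in C57, with a log2 fold change of 1.51 (SE 0.333, adjusted p = 0.0272). The first of these held epidermal markers (12 keratinocyte genes such as Krt1) at a summed 77032 CPM against 31.0 to 584 CPM in the other uninjured C57 libraries, and the second held skeletal muscle markers (12 genes such as Acta1) at a summed 68273 CPM against 8.56 to 2122 CPM in the other injured C57 libraries. Over all genes, leaving out both raised the share called in C57 from 1.07% to 5.97%.

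Il13ra1 (chromosome X, 36112110 to 36171259, plus strand) encodes the partner chain that completes the receptor for IL-13. In uninjured C57 tendon it was at 109, 98.9, 94.9 and 149 CPM, and at 7 dpi at 77.7, 189, 149 and 156 CPM. In uninjured MRL tendon it was at 65.6, 78.2, 124 and 95.7 CPM, and at 7 dpi at 199, 243, 206 and 350 CPM. The C57 groups overlapped, and the lowest injured C57 library is the one with muscle markers. In MRL the groups were far apart. The log2 fold change was 0.28 (SE 0.273, adjusted p = 0.681) in C57 and 1.46 (SE 0.245, adjusted p = 0.00566) in MRL. Without the 2 C57 libraries that stand apart the C57 value was 0.71, with an adjusted p of 0.0157, which passed the p threshold but not that of fold. The rise in MRL was called in 16 of 16 alternatives, with log2 fold changes of 1.25 to 1.63 when libraries were left out in turn. The interaction was 1.13 (SE 0.387) with an unadjusted p of 0.0102 in edgeR's test, but an adjusted p of 0.344, so a difference between the strains in the response of Il13ra1 was not shown. Over the alternatives the interaction was as low as 0.78, without the libraries that stand apart, and its adjusted p ranged from 0.167 to 0.509.

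Stat6 (chromosome 10, 127642986 to 127660957, plus strand), the factor that carries the signal of both receptors to the nucleus, differed little between groups. It was at 113 to 184 CPM in uninjured C57, 122 to 218 CPM in injured C57, 140 to 157 CPM in uninjured MRL and 97.8 to 161 CPM in injured MRL tendon. All 4 ranges overlapped, and the log2 fold changes after injury were 0.02 (SE 0.236) in C57 and −0.14 (SE 0.167) in MRL. The decoy receptor Il13ra2 (chromosome X, 147383476 to 147429192, minus strand) had 0 counts in 15 of 16 libraries and 8 counts, or 0.493 CPM, in injured C57 replicate 2. A library with 0 counts allows a level of up to 3 counts, which is 0.126 to 0.241 CPM here, for counting error only, since the sources mention no molecular identifiers.

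The ligands of these receptors were near the limit of detection. Il4 was at 0.04 to 1.42 CPM in 14 libraries and at 0 in C57 uninjured replicate 4 and MRL injured replicate 2. Il13 had 1 count in C57 uninjured replicate 2 and 0 in the other libraries. Transcripts of both cytokines come mainly from lymphoid and mast cells, and the summed level of 6 T cell markers was 0 to 2.39 CPM in uninjured and 4.4 to 10.4 CPM in injured tendon. Only Cd2 of the 6 had enough counts to be tested for injury, at a mean of 4.25 CPM in injured C57 and 6.16 CPM in injured MRL tendon, and the group means of Cd3e, Cd3g, Cd4, Cd8a and Trac were at most 1.36 CPM.

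The balance of the chains in the type II receptor was compared as the ratio of Il13ra1 to Il4ra in CPM per kilobase of exon, a ratio that library scaling leaves unchanged and that was chosen after the values were seen. It was 6.86, 8.23, 5.88 and 7.02 in uninjured C57 and 3.38, 3.28, 3.2 and 7.26 in injured C57 libraries. In MRL it was 7.85, 11.5, 14.9 and 9.04 in uninjured and 13.3, 9.55, 16.9 and 15.8 in injured libraries. The injured groups did not overlap, with means of 4.28 ± 1.99 in C57 and 13.9 ± 3.25 in MRL (SD, n = 4). An exact two-sided permutation test on log2 ratios gave p = 0.0286 for injured MRL against injured C57, the smallest p that 4 against 4 allows, and 0.114 after Benjamini-Hochberg adjustment over the 4 comparisons made. For uninjured tendons the exact permutation p was 0.0571, and the tests of injury gave 0.114 (C57) and 0.229 (MRL). With 4 comparisons a single one at the smallest p cannot go below 0.114 after adjustment, so the adjusted values say little for or against a difference. None of these p-values, adjusted or not, allows for the choice of the ratio after the values were seen.

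**Figure D2:**
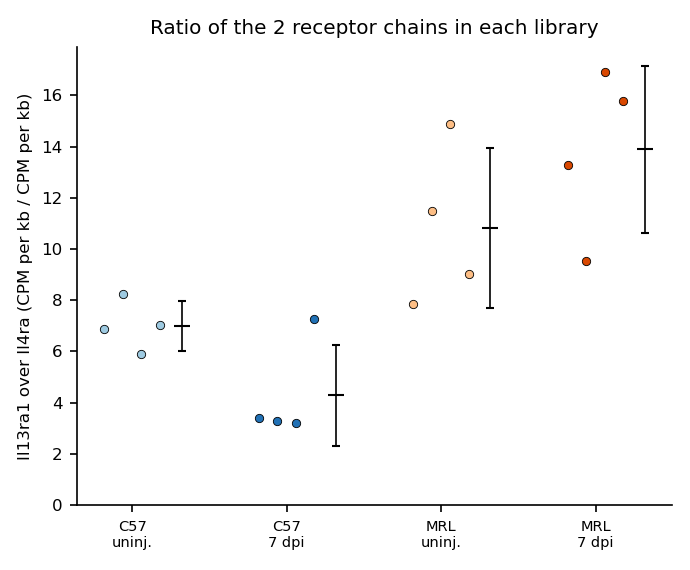
Ratio of Il13ra1 to Il4ra (vertical axis, CPM per kilobase of exon over CPM per kilobase of exon, linear from 0) in the 4 libraries of each group, with mean and SD. The injured C57 libraries lie at 3.2 to 7.26 and the injured MRL libraries at 9.55 to 16.9.

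Il10ra (chromosome 9, 45253837 to 45269149, minus strand) encodes the ligand-binding chain of the IL-10 receptor and is expressed mainly on leukocytes. It was at 12.3, 17.9, 13.7 and 0 CPM in uninjured C57 and at 13.5, 26.9, 42.9 and 30.5 CPM in injured C57 libraries. In MRL it was at 6.10, 3.68, 10.5 and 8.84 CPM without injury and at 22.2, 8.71, 13 and 18.4 CPM at 7 dpi. The value of 0 came from the C57 library with epidermal markers, and the lowest injured C57 value from the one with muscle markers. Both pairs of groups overlapped. The log2 fold change was 1.33 (SE 1.04, adjusted p = 0.586) in C57 and 1.10 (SE 0.411, adjusted p = 0.111) in MRL, neither called. Without the 2 C57 libraries that stand apart the C57 value was 1.19 (SE 0.255) and was called, with an adjusted p of 0.0241. In MRL DESeq2 alone called it, at an adjusted p of 0.0497, and over the alternatives the adjusted p in MRL ranged from 0.0497 to 0.474. The ligand Il10 was counted only in injured C57 replicates 2, 3 and 4, at 0.31, 1.36 and 0.35 CPM, and was at 0 in the other 13 libraries.

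Markers of macrophages and other leukocytes rose with injury beside the higher means of Il4ra, Il13ra1 and Il10ra. Of these receptor genes Il4ra and Il13ra1 were called in MRL only, and Il10ra in neither strain. The summed level of 12 such genes, from Ptprc to Tyrobp, was 823 to 1866 CPM in uninjured C57 and 4925 to 8933 CPM in injured C57 tendon, and 1014 to 1680 CPM and 3865 to 6904 CPM in MRL. None of the 12 was at 0 in any library, 6 were called higher in C57 and 8 in MRL, and their median log2 fold changes were 1.79 and 1.51. The part of these cells in the higher means of Il4ra, Il13ra1 and Il10ra was not tested. In bulk tissue a change in the number of cells of a type and a change in RNA per cell cannot be told apart.

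**Figure D3:**
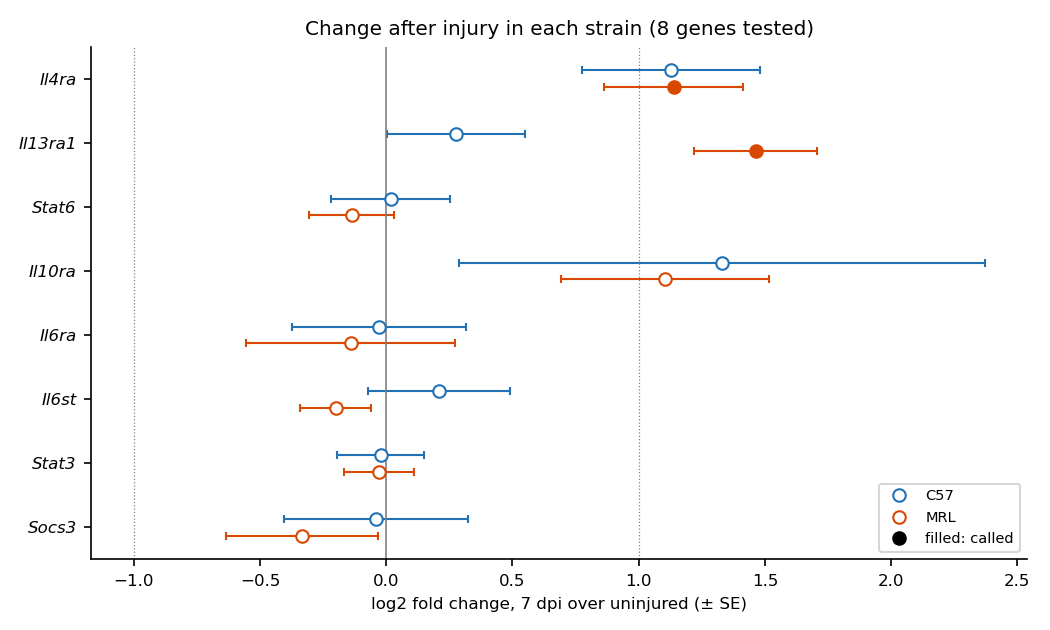
Log2 fold change at 7 dpi over uninjured tendon (horizontal axis, ± SE) of the 8 genes tested, in C57 (blue) and MRL (orange), with n = 4 libraries per group. Filled points were called: Il4ra at 1.14 and Il13ra1 at 1.46, both in MRL.

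The IL-6 axis gave no call after injury in either strain. Il6 itself (chromosome 5, 30013114 to 30019981, plus strand), an inflammatory cytokine, had 12 counts in uninjured C57 replicate 3, 20 in injured C57 replicate 3, 2 in injured MRL replicate 2, 10 in injured MRL replicate 4 and 0 in the other 12 libraries. The highest of these was 1.30 CPM. No order of the groups can be read at this depth.

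Il6ra (chromosome 3, 89864059 to 89913196, minus strand), the alpha chain that binds IL-6, was lower in MRL than in C57 at 7 dpi. In uninjured tendon it was at 27.1, 20.7, 32.4 and 60.5 CPM in C57 and at 9.68, 8.58, 17.3 and 29.3 CPM in MRL. At 7 dpi it was at 29.9, 42.9, 29.0 and 41.7 CPM in C57 and at 21.5, 11.7, 14.9 and 10.4 CPM in MRL. The uninjured groups overlapped and the injured ones did not. The difference in injured tendon, MRL over C57, was −1.32 on the log2 scale (SE 0.277, adjusted p = 0.0284) and was the only one of the 8 called in that comparison, in which 3.43% of all genes were called. In uninjured tendon it was −1.16 (SE 0.477, adjusted p = 0.621), with 0% of all genes called. Its log2 fold change after injury was −0.03 (SE 0.344) in C57 and −0.14 (SE 0.414) in MRL. The call in injured tendon was made in 10 of 16 alternatives. It was lost without C57 injured replicate 2 or 4 (adjusted p = 0.0817 and 0.0906), without MRL injured replicate 2, 3 or 4 (0.0903, 0.0607 and 0.0572) and in one fit over all 16 libraries (0.09), with log2 fold changes from −1.14 to −1.30 there.

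Il6st (chromosome 13, 112464070 to 112510086, plus strand), the gp130 chain shared by the IL-6 family, was at 110 to 192 CPM in uninjured C57 and at 204 to 229 CPM in uninjured MRL libraries, groups that did not overlap. The difference was 0.39 (SE 0.178, adjusted p = 0.631). At 7 dpi the ranges were 139 to 307 CPM in C57 and 161 to 222 CPM in MRL and overlapped. The lowest of the 16 values, 110 CPM, was that of the C57 library with epidermal markers.

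Stat3 (chromosome 11, 100885098 to 100939540, minus strand), the factor activated by both IL-6 and IL-10, differed little across injury. It was at 159 to 222 CPM in uninjured and 161 to 215 CPM in injured C57, and at 213 to 268 CPM in uninjured and 197 to 242 CPM in injured MRL tendon. Its log2 fold change after injury was −0.02 (SE 0.171) in C57 and −0.03 (SE 0.138) in MRL, and the strain difference was 0.30 (SE 0.158, adjusted p = 0.662) in uninjured and 0.24 (SE 0.159, adjusted p = 0.428) in injured tendon.

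Socs3 (chromosome 11, 117966079 to 117970047, minus strand), whose promoter stretch with the STAT motif is shown above, was at 96.0, 85.5, 162 and 43.0 CPM in uninjured C57 and at 117, 121, 223 and 300 CPM in uninjured MRL libraries. At 7 dpi it was at 82.8, 104, 130 and 68.8 CPM in C57 and at 188, 136, 161 and 116 CPM in MRL. The spread among uninjured libraries was wide, with the highest MRL and the lowest C57 values in the replicates numbered 4, and the groups of the strains overlapped in both states. The difference, MRL over C57, was 0.96 (SE 0.421, adjusted p = 0.631) without injury and 0.61 (SE 0.231, adjusted p = 0.17) at 7 dpi. The log2 fold change after injury was −0.04 (SE 0.366) in C57 and −0.34 (SE 0.301) in MRL. Without MRL uninjured replicate 4, the MRL value was −0.01.

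Between the strains, Il4ra had the lower mean level in MRL in both states. The log2 difference was −0.98 (SE 0.258) in uninjured tendon, where the groups did not overlap, and −1.02 (SE 0.355) at 7 dpi, where they did, with adjusted p-values of 0.621 and 0.139. Il13ra1 was at 199 to 350 CPM in injured MRL against 77.7 to 189 CPM in injured C57 tendon, without overlap, a difference of 0.77 (SE 0.275) with an adjusted p of 0.147. Il10ra differed by −0.60 (SE 1.06) in uninjured and −0.89 (SE 0.377, adjusted p = 0.208) in injured tendon. For uninjured tendon edgeR called none of the 8 genes. An unadjusted p under 0.05 was found for 3 of them (Il4ra, Il6ra and Socs3), against 1106 of the 14055 genes tested. DESeq2 called none of the 9 members that had any count there. The smallest adjusted p of edgeR over all genes in uninjured tendon was 0.0746. For the interaction edgeR called none of the 8 and 0% of all genes. An unadjusted p under 0.05 was found for 1 of the 8, against 1939 of the 15947 genes tested. DESeq2 called none of the 10 members for the interaction and 198 of all genes.

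**Figure D4:**
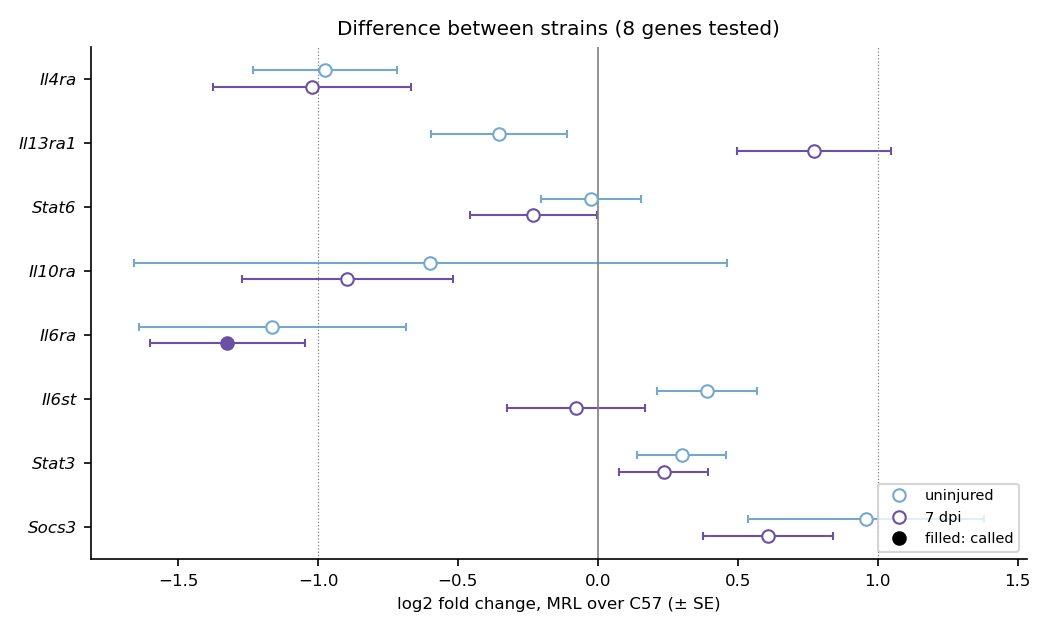
Log2 difference between strains, MRL over C57 (horizontal axis, ± SE), of the 8 genes tested, in uninjured (blue) and 7 dpi (purple) tendon, with n = 4 libraries per group. The only filled, called point is Il6ra in injured tendon at −1.32, and Il4ra lies near −1 in both states.

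Cell markers also differed between the injured strains, beside the called difference of Il6ra and the lower mean of Il4ra in MRL, which was not called. Of the 12 leukocyte markers 4 were called lower in MRL (Csf1r, C1qa, C1qb and C1qc), with a list median of −0.47 against −0.06 over all genes tested. The summed level of 6 endothelial markers was 98.7 to 146 CPM in injured C57 and 0.084 to 26.7 CPM in injured MRL libraries, with Pecam1 called lower, and that of 8 tenocyte markers was 15147 to 30823 and 28525 to 60187 CPM, with Scx called higher. The part of these cells in the differences was not tested.

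The order of mean levels per library group differed from gene to gene. For Il4ra it was injured C57, injured MRL, uninjured C57 and uninjured MRL, and only the last pair of neighbours did not overlap. For Il13ra1 it was injured MRL, injured C57, uninjured C57 and uninjured MRL, and only the first pair did not overlap. For the 8 other genes every neighbouring pair of groups overlapped. The share of all genes whose groups do not overlap was not counted for any comparison, so overlap is given only as a description. Levels of different genes can be compared only roughly per kilobase of exon, since all annotated exons of a gene were counted and not those of the transcript in use. In injured MRL tendon Il13ra1 stood at 67.2 ± 18.7 CPM per kb and Il4ra at 5.04 ± 1.65. There Il6st stood at 16.9 ± 2.47 against Il6ra at 1.69 ± 0.573 (SD, n = 4).

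Other genes of the pathways were taken from lists of partners, feedback inhibitors and target genes. Of 11 genes that act with the IL-4 and IL-13 receptors, 9 were tested. In MRL 3 rose and 1 fell, and in C57 none was called, with list medians of 0.43 in MRL and 0.99 in C57. The 12 leukocyte markers had medians of 1.51 in MRL and 1.79 in C57, and their part in the changes of this list was not tested. Il2rg, the common gamma chain that pairs with IL-4 receptor alpha in the type I receptor, was at 0.24 to 0.80 CPM in uninjured and 12.4 to 31.8 CPM in injured MRL tendon, a log2 fold change of 5.25 (SE 0.544, adjusted p = 0.00104). In C57 its log2 fold change was 2.95 (SE 0.976, adjusted p = 0.209), from 0 to 3.16 CPM to 8.28 to 17.5 CPM.

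Ptpn6, a phosphatase that dampens cytokine receptor signals in blood cells, rose in MRL with a log2 fold change of 1.78 (SE 0.279, adjusted p = 0.00435). Irs2, an adaptor of the IL-4 and insulin receptors, fell in MRL by 2.53 on the log2 scale (SE 0.369, adjusted p = 0.00338), from 116 to 160 CPM to 9.63 to 36.5 CPM. In C57 Ptpn6 had a log2 fold change of 1.00 (adjusted p = 0.342) and Irs2 one of −1.32 (adjusted p = 0.15), and neither interaction passed (adjusted p = 0.643 and 0.384). Tslp, an epithelial and stromal cytokine that promotes type 2 responses, rose in MRL from 0.32 to 5.70 CPM to 20.9 to 111 CPM (log2 fold change 4.75, SE 0.739, adjusted p = 0.00448, and 5.41 without uninjured replicate 2). In C57 it was at 0.23 to 3.16 CPM in uninjured and 4.56 to 7.50 CPM in injured tendon, a rise that was not called. Injured MRL against injured C57 gave 3.59 (SE 0.484, adjusted p = 0.00394), so the strains differed at 7 dpi. The interaction for Tslp was 2.66 (SE 1.09, adjusted p = 0.368).

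Of 16 genes of the IL-6 family, 13 were tested in MRL, where 2 rose and 2 fell, and 12 in C57, where none was called. The list medians were 0.18 in MRL and 0.04 in C57. Osm, oncostatin M, a macrophage- and neutrophil-derived cytokine that signals through gp130, had 0 counts in all 4 uninjured MRL libraries and was at 1.5 to 3.57 CPM at 7 dpi, at least 9.62-fold higher against a floor of 3 counts per library (adjusted p = 0.00789). The list median in MRL was the same with Osm at that bound. The receptor chains Il11ra1 and Lifr, which work with gp130, fell in MRL by 1.24 (SE 0.302, adjusted p = 0.0274) and by 1.43 (SE 0.346, adjusted p = 0.027), and both lost the call in 5 of the 8 fits that left out a library, with adjusted p-values of up to 0.0802 and 0.0671. In C57 the log2 fold changes were 1.72 (adjusted p = 0.68) for Osm, −0.08 (0.931) for Il11ra1 and −1.22 (0.158) for Lifr, and the adjusted p of their interactions was 0.37, 0.351 and 0.893.

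In the remaining partner lists no gene was called in either strain. Of the 10 IL-10 family genes 2 were tested, with Il10rb, the second chain of the IL-10 receptor, at 34.0 to 43.6 CPM in uninjured and 59.4 to 73.7 CPM in injured C57 tendon (log2 fold change 0.63, SE 0.159, adjusted p = 0.107). Of 5 other STAT genes 4 were tested, with Stat5b the highest (0.17 in C57 and −0.71 in MRL on the log2 scale). Of 11 feedback inhibitors beside Socs3, 11 were tested in C57 and 10 in MRL, with list medians of −0.15 and −0.07, and Pias1, an inhibitor of STAT signalling, was the highest of these on average (−0.27 and −0.11).

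Of 16 genes known as IL-4 and STAT6 targets in macrophages and stroma, 12 were tested in C57, where 3 rose, and 13 in MRL, where 4 rose and 1 fell. The medians were 2.34 and 0.94, the second unchanged with Chil3 at its lower bound. The 12 leukocyte markers moved beside these genes, several of which macrophages express, with medians of 1.79 in C57 and 1.51 in MRL, and their part in the changes was not tested. In C57 Mrc1, the mannose receptor of repair-associated macrophages, rose from 14.0 to 37.2 CPM to 85.3 to 158 CPM (log2 fold change 2.28, SE 0.303, adjusted p = 0.0152). Ccl24, an eosinophil-attracting chemokine, rose by 2.41 (SE 0.304, adjusted p = 0.0138), and Postn, the matrix protein periostin, by 6.91 (SE 1.25, adjusted p = 0.0466), from 4.15 to 9.07 CPM to 65.0 to 1753 CPM. In MRL the same genes had values of 0.88 (adjusted p = 0.06), 1.01 (0.217) and 3.06 (0.148). The interaction for Mrc1 was −1.45 (SE 0.42, adjusted p = 0.333). With each C57 library left out in turn, the call was kept in 3 of 8 fits for Mrc1, 4 for Ccl24 and 1 for Postn, with adjusted p-values of up to 0.0761, 0.064 and 0.146. Without injured replicate 2 the Postn value was 6.12.

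In MRL Ccl17, a T cell-attracting chemokine, was at 0 to 0.14 CPM in uninjured and 13.9 to 221 CPM in injured tendon (adjusted p = 0.00325). Its uninjured libraries held at most 2 counts each, under the floor of 3, so the fitted log2 fold change of 9.98 is not a measure of size, and it was 8.5 without injured replicate 4. Mgl2, a macrophage lectin, rose by 3.15 (SE 0.872, adjusted p = 0.0444, and by 4.27 without uninjured replicate 3) to 35.2 to 44.4 CPM, and in C57 it was at 34.9 to 43.2 CPM after injury (3.47, SE 0.926, adjusted p = 0.128). Chil3, a chitinase-like protein of macrophages, had 0 counts in the uninjured MRL libraries and 0.63 to 9.97 CPM at 7 dpi, at least 14.7-fold higher (adjusted p = 0.0183). Klf4, a transcription factor of macrophages and epithelia, fell in MRL by 1.35 (SE 0.322, adjusted p = 0.0255). In C57 Klf4 had a log2 fold change of −1.44 (adjusted p = 0.119) and Ccl17 one of 4.96 (adjusted p = 0.0556), not called, and the adjusted p of the interaction was 0.993 and 0.342. With each MRL library left out in turn, Ccl17 stayed called in 8 of 8 fits, Klf4 in 3 and Mgl2 in 2, and Chil3 in each of the 5 in which it was tested. Over the alternatives the adjusted p reached 0.0758 for Klf4 and 0.184 for Mgl2.

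Of 17 genes known as targets of STAT3 or of IL-6 and IL-10, all were tested, 1 rose in C57 and 4 rose in MRL, and the medians were 0.12 and 0.60. Medians of the 12 leukocyte markers were 1.79 in C57 and 1.51 in MRL, and the part of these cells was not tested. Lcn2, the iron-binding lipocalin 2, rose in both strains, by 2.85 (SE 0.477, adjusted p = 0.0353) in C57 and 3.05 (SE 0.834, adjusted p = 0.0491) in MRL, and the call was kept in 2 of the 8 fits that left out a C57 library and in 0 of the 8 that left out an MRL library. In MRL injured replicate 4 it was at 637 CPM against 85.4 to 138 CPM in the other injured libraries, and without that library the log2 fold change was 1.86. Timp1, an inhibitor of matrix metalloproteases, rose in MRL from 42.9 to 89.3 CPM to 527 to 5084 CPM (log2 fold change 4.97, SE 0.759, adjusted p = 0.00466). Injured replicate 4 held the 5084 CPM, and without it the value was 3.85 and still called. Saa3, an acute phase protein, rose by 5.59 (SE 1.12, adjusted p = 0.0165), from 0.50 to 4.42 CPM to 4.98 to 303 CPM, a call that was lost without MRL injured replicate 4 (4.95) and with no filter (adjusted p = 0.0748). Il1rn, the IL-1 receptor antagonist induced by IL-10, rose by 4.03 (SE 0.806, adjusted p = 0.0124, and by 4.73 without uninjured replicate 2), lost the call in one fit over all 16 libraries (adjusted p = 0.131) and was higher in injured MRL than in injured C57 by 1.90 (SE 0.421, adjusted p = 0.0355). In C57 the log2 fold changes were 2.36 (adjusted p = 0.125) for Timp1, 1.70 (0.446) for Saa3 and −2.92 (0.441) for Il1rn, and the interactions had adjusted p-values of 0.355, 0.349 and 0.333. In uninjured C57 replicate 4 Il1rn was at 158 CPM, against 0 to 11.3 CPM in the other uninjured C57 libraries.

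**Figure D5:**
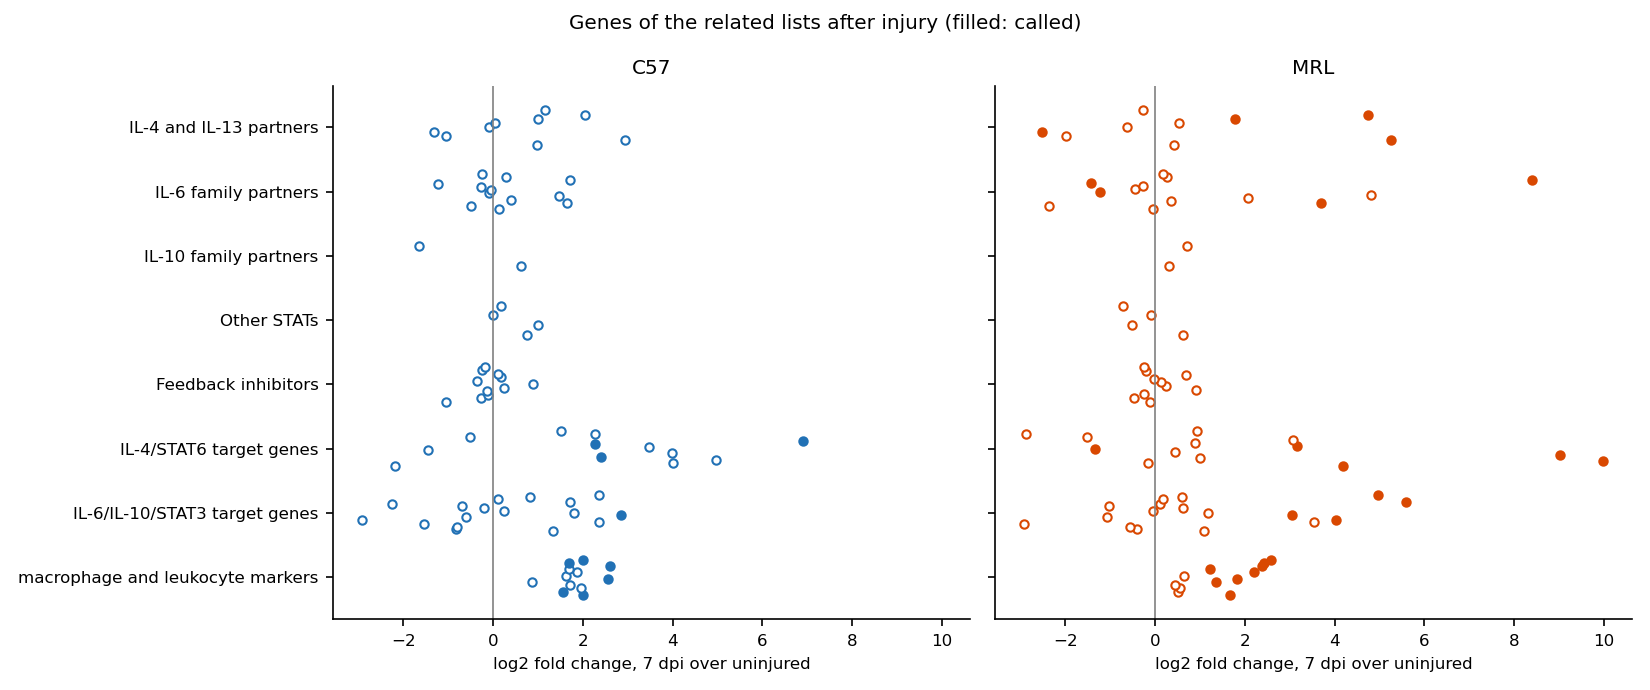
Log2 fold change at 7 dpi over uninjured tendon (horizontal axes) of each tested gene of 7 pathway lists and of the leukocyte markers, in C57 (left) and MRL (right), 1 point per gene and filled where called. Filled points lie mainly in the target lists and the leukocyte markers, and none lies in the lists of IL-10 partners, other STATs and feedback inhibitors.

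Genes with the most similar pattern were sought for each of the 8 genes, from the 3 highest Pearson correlations of log2 CPM over the 16 libraries among 13574 other genes. These are descriptions over libraries that share strain, injury state and depth. They were Hmga1 (0.875), Madd (0.856) and Sox12 (0.854) for Il4ra, and Cmpk1 (0.951), Ostf1 (0.926) and Cfl1 (0.916) for Il13ra1. For Il10ra they were Slc1a5 (0.976), Bst2 (0.963) and Snx10 (0.957), and for Il6ra Dapk1 (0.883), Cwh43 (0.874) and Ror1 (0.873). For Il6st they were Sacm1l (0.88), Efr3a (0.845) and Copa (0.838), for Stat3 Ift80 (0.843) and Fam229b (0.816), for Stat6 Bahd1 (0.83), Tbc1d14 (0.814) and Pld2 (0.813), and for Socs3 Cyr61 (0.889), Lrrc41 (0.838) and Mirg (0.834). Among the members themselves the highest value was 0.742, between Stat3 and Socs3, and that of the receptor pair Il4ra and Il13ra1 was 0.503.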

How the data were processed

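Bulk RNA-seq of mouse flexor tendon (16 libraries, 4 groups of 4) was analysed from the table of whole-number counts per gene symbol that the authors deposited, without normalization or a filter. The authors had trimmed 100 nt single-end reads (Trimmomatic 0.36) and aligned them to GRCm38.p5 (STAR 2.5.2b). The submitters' processing notes also name Subread 1.5.0p3 and DESeq2 1.14.1. Which annotation was counted, and whether by strand, is not given in the sources used here, so overlapping and antisense genes are uncertain. The labels and the methods describe different library kits, and neither mentions molecular identifiers.

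Counts were scaled by TMM, filtered with filterByExpr and tested with edgeR 4.0.16 (robust quasi-likelihood test, R 4.3.3) for injury in each strain, strain in each state, and their interaction (adjusted p alone). Each pairwise fit held its 2 groups and the interaction all 16 libraries. p-values were adjusted over all genes tested. CPM use sizes adjusted over the 16 libraries. Scripts were tested on simulated data. DESeq2 1.42.0, other scalings, filters, a block and left-out libraries were alternatives. Gene coordinates and exonic lengths are from GENCODE M21.

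The members and lists were chosen with earlier results of these data known. Genes named are the members, every listed gene called after injury in either strain, the highest gene of a list without calls, and the 3 most correlated genes per member, except a few that are counted in their lists but not reported here by name. Marker genes, the ligands Il4, Il13 and Il10, and the receptor ratio were named in addition, after their values were seen. Replicates of a group differed by more than sampling noise. Injured libraries carry no replicate number in the labels and were numbered in accession order.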

Additional observations from a re-analysis of the deposited data

Results flagged for a closer look

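Of the 36 groups of 4 libraries in which a member varied, 5 held a library far from the other 3 by Dixon's test. The test flags about 1 in 20 groups by chance, a rate that does not apply where 3 libraries are at 0, since any count in the other one is then flagged, as in 3 of the 5. Il13ra2 was at 0.493 CPM (8 counts) in injured C57 replicate 2 and at 0 in the other 3 libraries. Il6 was at 0.926 CPM (12 counts) in uninjured C57 replicate 3, at 1.3 CPM (20 counts) in injured C57 replicate 3 and at 0 in the other libraries of those groups, and at 0.557 CPM (10 counts) in injured MRL replicate 4 against 0 to 0.0907 CPM. Stat3 was at 268 CPM in uninjured MRL replicate 3 against 213 to 219 CPM in the other 3 libraries. All but the last rest on at most 20 counts.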

How the results depend on the processing

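The number of members called after injury in MRL stayed at 2 or went to 3 (DESeq2, which added Il10ra) in every alternative that kept all libraries, and was 1 to 2 when libraries were left out in turn. In C57 it was 0 in each alternative except without the libraries that stand apart, where it was 2. Between injured strains it was 1, but 0 in one fit over all 16 libraries and 0 to 1 with libraries left out in turn. The cause was not tested. Uninjured strains and the interaction gave 0 members in each alternative run, the interaction also by DESeq2, which called 198 of all genes, against 0 by edgeR. The interaction had 1939 genes with an unadjusted p under 0.05. For uninjured strains edgeR called 0 of all genes (1106 with an unadjusted p under 0.05), DESeq2 104, and edgeR without the libraries that stand apart (here replicate 4 of each strain) 497. Over all genes, the count in C57 was 155, but 911 with DESeq2, 269 with at least 10 counts in every library, 367 in one fit over all libraries, 867 without the libraries that stand apart, 750 without uninjured replicate 4 and 10 to 92 without any other single library. In MRL it was 1057 and 1818 with DESeq2, and 689 without uninjured replicate 1, the lowest when libraries were left out. Between injured strains it was 502, 1488 with DESeq2, 227 in one fit over all libraries and 231 without C57 injured replicate 4 at the lowest, 286 without C57 injured replicate 2 and 255 without MRL injured replicate 2. Scaling by total counts moved the median of all genes to −0.20 for injured strains and −0.14 for the interaction, and the share of calls higher in injured MRL from 45.2% to 32.9%.

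Signs turned only for members that were not called, with values between −0.35 and 0.21 on the log2 scale. In C57 after injury, Il6ra was 0.0205 with DESeq2, 0.041 with upper-quartile factors, 0.0124 with RLE factors, 0.139 with total counts, 0.00617 with no filter, 0.0426 with at least 10 counts in every library, 0.504 without the libraries that stand apart and 0.0197 in one fit over all libraries. Stat3 was 0.0315 with DESeq2, 0.0138 with upper-quartile factors, 0.026 with RLE factors, 0.115 with total counts, 0.0504 with at least 10 counts in every library, 0.0265 without the libraries that stand apart and 0.0238 in one fit over all libraries. Socs3 was 0.013 with DESeq2, 0.00864 with RLE factors, 0.086 with total counts, 0.0314 with at least 10 counts in every library and 0.00432 in one fit over all libraries. Without the libraries that stand apart, Il6ra in MRL was 0.326 and the interactions of Il10ra and Socs3 were 0.00721 and 0.146. With libraries left out in turn, the C57 values ran from −0.154 to 0.161 for Stat6, −0.215 to 0.39 for Il6ra, −0.0587 to 0.362 for Il6st, −0.073 to 0.0822 for Stat3 and −0.281 to 0.324 for Socs3. The MRL values ran from −0.404 to 0.326 for Il6ra and −0.0889 to 0.038 for Stat3. The interactions ran from −0.239 to 0.24 for Il4ra, −0.578 to 0.282 for Il6ra, −0.624 to 0.131 for Il10ra and −0.162 to 0.0253 for Stat3. Il6st between injured strains ran from −0.194 to 0.218. Stat6 between uninjured strains ran from −0.134 to 0.131 and was 0.0187 with upper-quartile factors, 0.0206 with no filter and 0.155 without the libraries that stand apart. Among the member values under alternatives, 627 kept both sign and side of the threshold, 60 had turned signs, 11 lost a call and 3 gained one. Of the 17 listed genes called in MRL and the 4 in C57, 10 and 0 stayed called in every fit that left out a library in which they were tested, and all 21 kept their sign. In every alternative in which they were tested, 9 of the 17 and 0 of the 4 stayed called.

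Only the uninjured libraries carry replicate numbers, which mark different mouse strains and so different animals. Deviations of same-numbered libraries correlated at −0.262, 0.0155, −0.104 and −0.233, so the numbers do not pair them. With the replicate block 0 members and 0 genes were called (812 with an unadjusted p under 0.05), and Stat6 was 0.00331. The injury comparisons share no numbers. With 3 counts as the floor, Il6 and Il13ra2 cannot be compared at this depth.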
